A study of Mus musculus with 18 samples.

Results

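The immunoglobulin heavy variable (Ighv) segments are the short genes from which B cells assemble the variable region of the antibody heavy chain. In the deposited tables of 18 mouse splenocyte libraries, 185 reference genes had a name starting with Ighv, and the 184 with a mean above 0 FPKM (fragments per kilobase, scaled to library size) over the 18 libraries are described here, out of 47729 reference genes. Ighv5-8, an entry on the plus strand, was listed at 0 in every library, while Ighv1-68, the lowest of the 184, had a mean of 0.00109 FPKM. The reference annotation (GENCODE M21) types 113 of the 184 as functional V genes, 70 as pseudogenes and 1 as an entry of its own type, and the names place 93 of them in family 1 and 91 in the other families. A mean of at least 0.5 FPKM, the level needed for testing, was reached by 113 segments, of which 98 were V genes and 15 pseudogenes. Ighv6-4, at 0.503 FPKM, lay just above that level and Ighv1-43, at 0.403 FPKM, just below it.

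The libraries fall into 4 groups. N had 3 libraries of untreated mice and LM had 3 libraries of mice given LPPC/MP, a lipo-PEG-PEI liposome that carried membrane proteins of antigen-loaded dendritic cells, by a first injection and a boost. LMA had 6 libraries, from mice primed in the same way and then treated with the complex bearing an anti-CD28 antibody, and LMS had 6, in which that later complex bore an antibody to CTLA4 (CD152). CD28 is an activating and CTLA4 an inhibitory receptor of T cells. LMA and LMS therefore differed from LM by later injections and a later sampling week besides the antibody, and these cannot be told apart. Whether a library came after 1 or 2 antibody-bearing injections is not in its label. Every label reads spleen, C57BL/6J, female, with an age of 4 to 6 weeks at purchase, whereas the study's methods name both BALB/c and C57BL/6 mice and an older age. No source used here says that libraries of a group came from separate mice. Each p-value therefore refers to the spread over libraries, which may be technical.

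Heavy-chain variable regions arise by V(D)J recombination, in which a developing B cell joins a single Ighv segment to a D and a J segment. The rearranged exon is transcribed and spliced to a constant exon such as Ighm (IgM) or Ighg1 (IgG1), and germline segments that were not joined give little RNA in mature cells. The summed level of Ighv transcripts in spleen therefore depends on the number of B cells and antibody-secreting plasma cells, and the relative use of segments describes the repertoire. Segments of the large family 1 lie mostly in the distal part of the locus, away from the D and J segments.

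All 184 segments lie on chromosome 12 of GRCm38 (mm10), between Ighv5-1 and Ighv1-86 over 2.44 megabases, and 183 of them are on the minus strand. In the libraries 4 different segments had the highest FPKM, and the last 150 bases of their reference transcripts (GENCODE M21, GRCm38) are shown because the comparison of libraries turns on them. The capitals mark the codons of the conserved Tyr-Tyr-Cys at the end of framework 3. They were searched as TA, T or C, T, A or T, T or C, TG, T or C, a pattern that also takes Tyr-Phe-Cys.
Ighv1-26: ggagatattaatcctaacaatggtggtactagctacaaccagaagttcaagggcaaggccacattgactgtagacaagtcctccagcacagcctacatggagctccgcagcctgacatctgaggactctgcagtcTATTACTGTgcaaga
Ighv1-9: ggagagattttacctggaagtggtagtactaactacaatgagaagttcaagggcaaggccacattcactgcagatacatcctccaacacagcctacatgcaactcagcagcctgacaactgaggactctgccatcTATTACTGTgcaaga
Ighv2-9: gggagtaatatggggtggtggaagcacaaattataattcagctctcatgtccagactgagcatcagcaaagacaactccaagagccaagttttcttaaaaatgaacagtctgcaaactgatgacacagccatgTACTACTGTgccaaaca
Ighv6-3: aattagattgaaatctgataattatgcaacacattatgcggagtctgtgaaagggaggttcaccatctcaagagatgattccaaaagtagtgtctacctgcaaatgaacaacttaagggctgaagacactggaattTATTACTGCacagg
Ighv1-26 lies at chr12:114788372-114788805, Ighv1-9 at chr12:114583569-114584002, Ighv2-9 at chr12:113879096-113879541 and Ighv6-3 at chr12:114391712-114392169, each on the minus strand and each with a leader exon and a V exon. Over these stretches Ighv1-26 and Ighv1-9, both of family 1, were 84.0% identical, whereas pairs from different families were 52.3% to 59.4% identical. Codons of this pattern, Tyr-Tyr-Cys or Tyr-Phe-Cys, were found in the last 150 bases of 107 of 113 V genes and of 37 of 70 pseudogenes. Of the 113 tested segments, 78 shared no window of 100 bases with another Ighv transcript, among them Ighv1-9, Ighv2-9 and Ighv6-3. The other 35 share such windows, so the division of reads among them is uncertain. Ighv1-26 is one of these, with 7.94% of its windows also in Ighv1-34.

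Cell content was steady within LM and within LMA but divided the libraries of N and of LMS, and the Ighv level moved with this. N 1, N 2, LMS 2 and LMS 5 had 0 FPKM of the Y-linked gene Eif2s3y and 267 to 307 FPKM of the macrophage gene Lyz2. The other 14 libraries had 31.0 to 43.0 FPKM of Eif2s3y in spite of a female label. In these Lyz2 was at 1386 to 1491 FPKM in LM and LMA, 2589 to 2743 in LMS 1, 3, 4 and 6 and 2888 in N 3. The mean log2(FPKM + 0.5) of the 20 genes of a list of B cell receptor and identity genes ranged from 2.02 to 6.78 in N, from 4.29 to 4.65 in LM, from 4.08 to 4.58 in LMA and from 3.50 to 6.42 in LMS. N 3 had 0.843 FPKM of the T cell gene Cd3e and 9.60 FPKM of the B cell gene Cd79a, against 59.1 and 403 FPKM in N 2, so the lymphocytes that define a spleen sample were nearly absent from N 3. Aligned sequence was estimated at 5.21 to 7.92 gigabases per library, while the part over the Ighv segments was 102 kilobases in N 3 and 478 to 7360 kilobases in the others. The part of cell content in the results below was not tested.

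The summed FPKM of the segments was steady within LM and LMA and spread widely within N and LMS. It was 1779 in N 1, 3211 in N 2 and 38.4 in N 3. It was 787, 908 and 706 in LM 1, 2 and 3. In LMA it was 995 at the lowest, 1182 at the median and 1296 at the highest, so that all 6 LMA libraries lay above all 3 LM libraries. In LMS it was 206 at the lowest, 392 at the median and 3074 at the highest, and 2 libraries, LMS 2 with 2940 and LMS 5 with 3074, lay far above the other four, which had 206 to 447. N and LMS thus overlapped with both other groups. In bulk RNA, fewer B cells and less Ighv RNA in each B cell cannot be told apart.

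**Figure D1:**
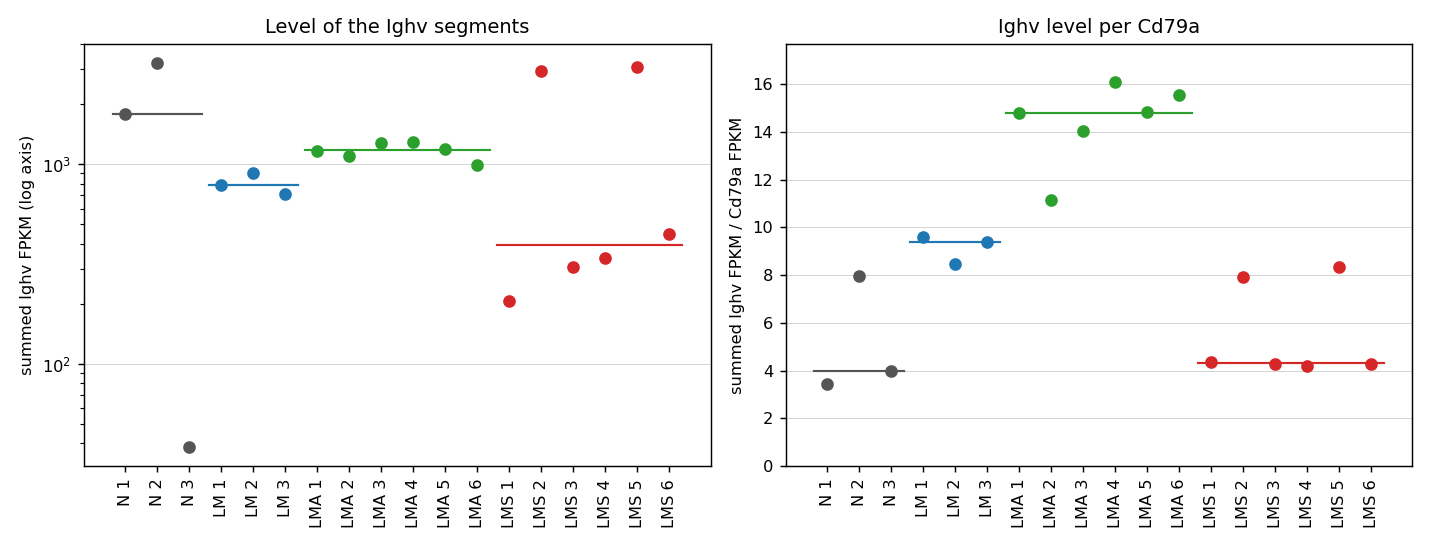
The left plot gives the summed Ighv FPKM of each library on a log axis and the right plot gives it divided by the FPKM of Cd79a, with 1 point per library and a line at the median of each group. The 6 LMA libraries lie above the 3 LM libraries in both plots, at 11.2 to 16.1 against 8.47 to 9.59 per Cd79a, while N and LMS spread over both plots.

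The level was also read against other B cell transcripts. Per FPKM of Cd79a, a signalling chain of the B cell receptor, the summed Ighv level was 9.15 ± 0.594 in LM (mean ± SD, n = 3) and 14.4 ± 1.74 in LMA (n = 6). In LMS 1, 3, 4 and 6 this ratio was 4.21 to 4.34, and in LMS 2 and 5 it was 7.92 and 8.35. It was 3.44, 7.97 and 4.00 in N 1, N 2 and N 3. The ratio of Ighm to Cd79a was likewise higher in LMA, with 13.2 ± 0.717 in LM and 19.5 ± 2.10 in LMA. Against the sum of the 8 heavy constant genes the Ighv level varied less, from 0.549 to 0.679 in 17 libraries, and N 3 had 0.331. These ratios are descriptions without a test.

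The distribution over segments was broad in every library. The single highest segment held 4.80% to 6.88% of the summed Ighv FPKM, and the 10 highest held 34.0% in N 1 and 35.7% to 43.9% in the other 17 libraries. The effective number of segments, the exponential of the Shannon entropy of their shares, was 64.9 in N 1, 55.2 in N 2 and 51.0 in N 3. In LM it was 60.1, 61.6 and 59.8. It was 58.7, 59.3 and 60.5 at the lowest, median and highest of LMA, and 51.5, 54.6 and 56.6 in LMS. All 6 LMS libraries therefore lay below all LM and LMA libraries, also LMS 2 and LMS 5, whose summed level was the highest of LMS. The inverse Simpson index gave the same order, with 43.1 to 46.1 in LM and LMA and 35.6 to 40.6 in LMS. The number of segments above 0 ran from 111 in N 3 to 183 in LMS 5 and was not compared, as it moves with the amount of aligned sequence.

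Ighv6-3, Ighv6-6, Ighv1-9, Ighv2-9, Ighv10-1, Ighv9-3, Ighv2-2, Ighv9-1, Ighv3-6 and Ighv14-2 had the 10 highest means, from 61.2 FPKM for Ighv6-3 to 32.0 FPKM for Ighv14-2. Which of them led differed between libraries. Ighv6-3 led all 9 libraries of LM and LMA, with 39.5, 43.6 and 35.8 FPKM in LM and 50.6 to 67.3 FPKM in LMA. Ighv1-9 led N 2, LMS 2 and LMS 5, with 202, 202 and 189 FPKM, and held 6.14% to 6.88% of their totals. Ighv2-9 led N 3 and LMS 1, 3, 4 and 6, at 2.61 FPKM in N 3 and 14.1 to 24.2 FPKM in the others. Ighv1-26 led N 1 alone, at 101 FPKM. In the other 17 libraries Ighv1-26 lay between 0.544 and 14.4 FPKM.

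**Figure D2:**
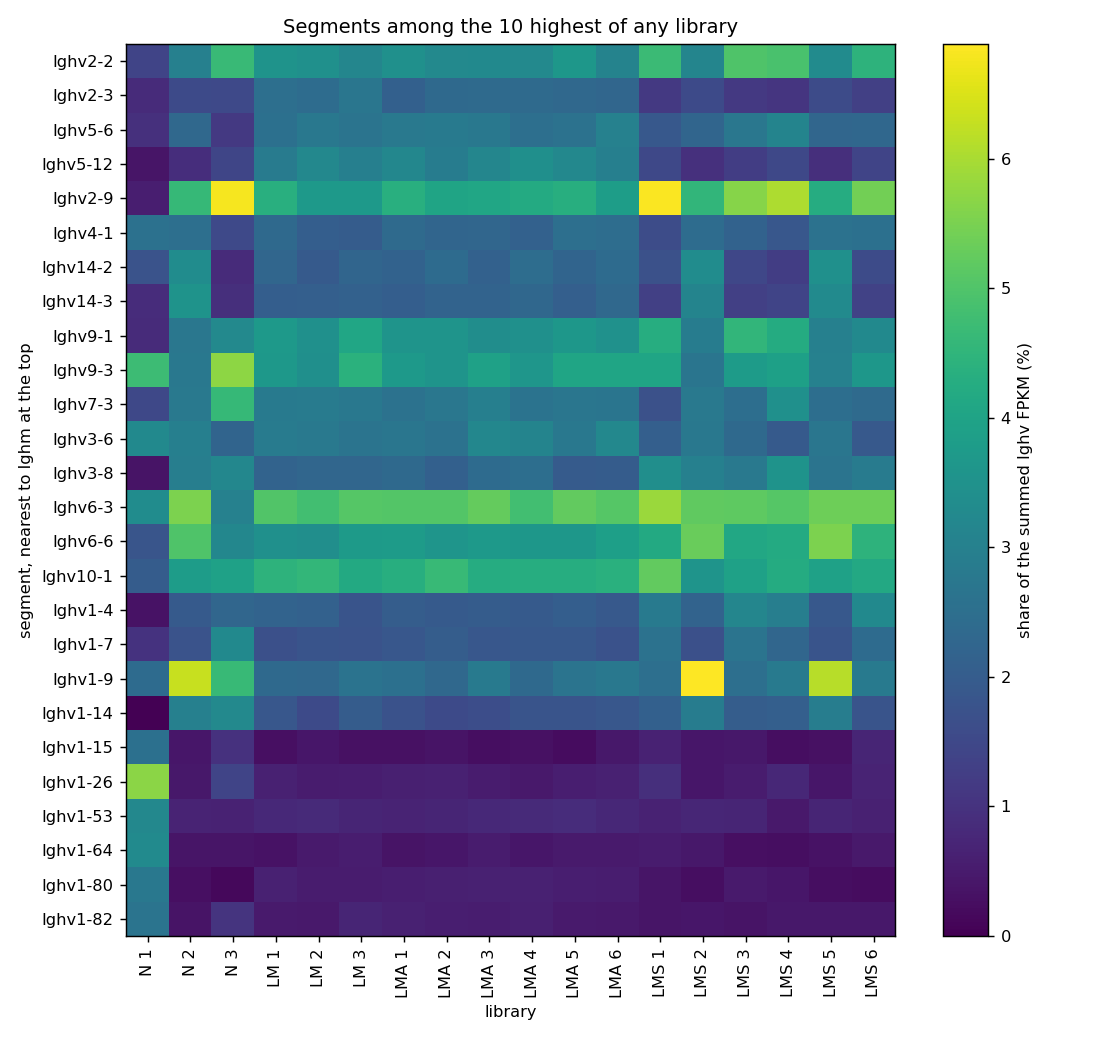
The heat map gives the share of the summed Ighv FPKM, in percent, for the 26 segments that were among the 10 highest of any library, with segments as rows ordered from the nearest to Ighm to the furthest and the 18 libraries as columns. Ighv1-26, Ighv1-53, Ighv1-64, Ighv1-80 and Ighv1-82 are bright in N 1 only, where Ighv1-14 and Ighv3-8 are dark, and Ighv1-9 is brightest in N 2, LMS 2 and LMS 5.

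Likeness of usage did not follow the treatment labels throughout, and the libraries most alike shared a leading segment. Across the 184 segments, Pearson's r between the shares of 2 libraries was 0.986 to 0.996 within LM and LMA together, so the segments held nearly the same shares with and without the anti-CD28 complex. It was 0.995 to 0.997 among N 2, LMS 2 and LMS 5, and 0.970 to 0.987 among LMS 1, 3, 4 and 6. Between the first and the second of these sets r was 0.883 to 0.918. N 1 correlated with the other 17 at 0.439 to 0.526, against at least 0.848 for every pair without N 1. Segments of a library share its depth and are not replicates, so these values are descriptions.

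N 1, a library of an untreated mouse, used a different set of segments. Family 1 held 54.8% of its Ighv total and 24.8% to 32.3% in the other 17 libraries. Of the 113 tested segments, 40 had a larger share in N 1 than in any other library and 34 a smaller one, and the next library in this count, N 3, had 17 and 25. Ighv1-64 held 3.31% in N 1 and 0.267% to 0.545% elsewhere, and Ighv1-53 held 3.22% against 0.480% to 0.872%. Ighv1-76 was at 34.7 FPKM in N 1 and at most 0.515 FPKM in the others. In the opposite direction Ighv2-9 held 0.569% in N 1 and 3.71% to 6.84% elsewhere, and Ighv3-8 held 0.357% against 1.98% to 3.55%. These segments were picked after their values were seen.

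Annotated pseudogenes made the same division. Together the 70 pseudogenes held 0.520% of the Ighv total in N 1, 8.09% in N 2, 8.30% in N 3 and 5.46% to 7.88% in the treated libraries. Ighv1-14, the highest of them, was at 0.198 FPKM in N 1, 96.1 in N 2 and 1.24 in N 3. It was at 13.9 to 14.8 FPKM in LM, 17.1 to 23.2 in LMA and 4.36 to 89.8 in LMS. The reference transcript of Ighv1-14 (chr12:114646572-114647056, minus strand) ends with the same capital codons as a functional segment, which is why its last 150 bases are shown.
Ighv1-14: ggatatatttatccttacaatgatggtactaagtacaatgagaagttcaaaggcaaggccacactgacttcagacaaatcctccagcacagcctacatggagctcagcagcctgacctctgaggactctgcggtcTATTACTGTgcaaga
Ighv4-2 was at 0.750 FPKM in N 1 and 46.7 in N 2, and Ighv3-2 at 0.890 and 48.3. Both are also annotated as pseudogenes. The gene H2-Ea-ps, named as a pseudogene in the reference because the H2-Ea gene of C57BL/6 mice is not expressed, was at 0.0671 FPKM in N 1 and at 26.0 to 1070 FPKM in the other 17 libraries. The mm10 reference is itself a C57BL/6J genome. The part of the strain in the segments that were read was not tested.

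**Figure D3:**
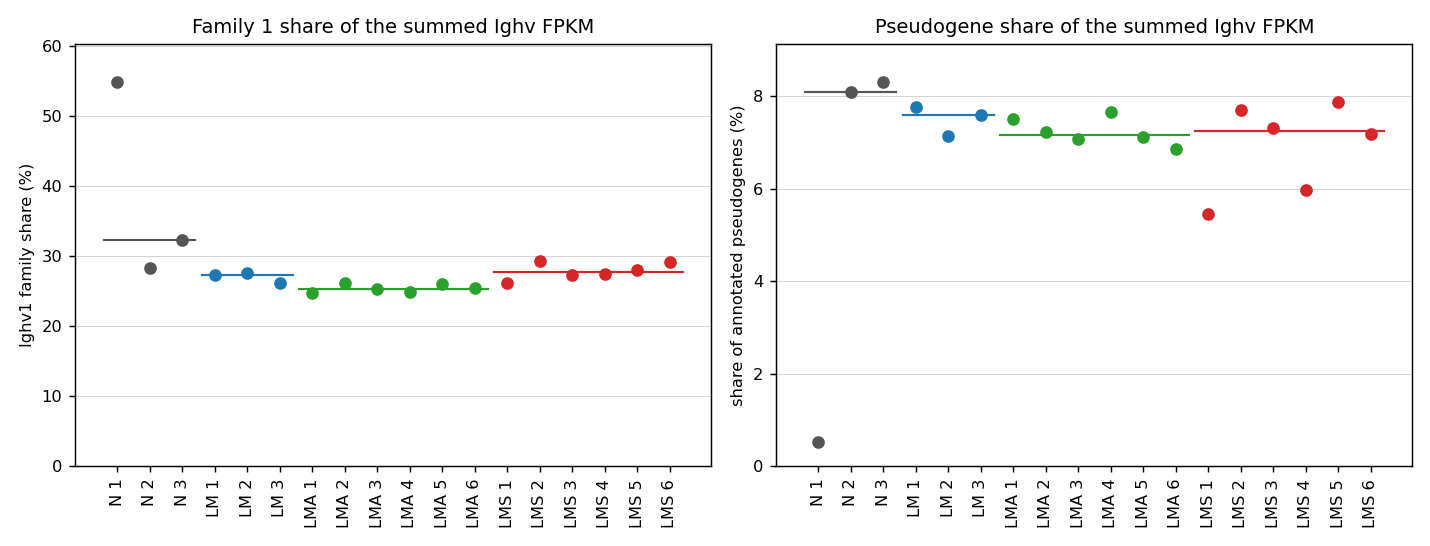
The left plot gives the share of family 1 and the right plot the share of annotated pseudogenes in the summed Ighv FPKM, in percent, with 1 point per library and a line at the median of each group. N 1 lies apart from the other 17 libraries in both, at 54.8% and 0.520%.

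Use along the locus differed in the same library. Taking the midpoint of the Ighv region as the limit, 107 segments lie on the side of Ighm and of the D and J segments and 77 on the distal side, of which 63 belong to family 1. The distal side held 39.7% of the Ighv total in N 1 and 13.7% to 16.9% in the other 17. Moving away from Ighm, 50% of the total was reached at 1260 kb in N 1 and at 840 to 877 kb in the others. The tested segments at both ends of the region are pseudogenes. Ighv5-1, the nearest, had 0.572, 11.2 and 0.0371 FPKM in N 1, N 2 and N 3, 0.993 to 1.75 in LM, 1.42 to 2.79 in LMA and 0.697 to 7.78 in LMS. Ighv1-86, the furthest, was at 0 in N 1 and N 3 and 8.18 FPKM in N 2, with 0.266 to 1.02 in LM, 0.531 to 1.05 in LMA and 0.344 to 7.79 in LMS. Both segments overlapped between all groups.

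**Figure D4:**
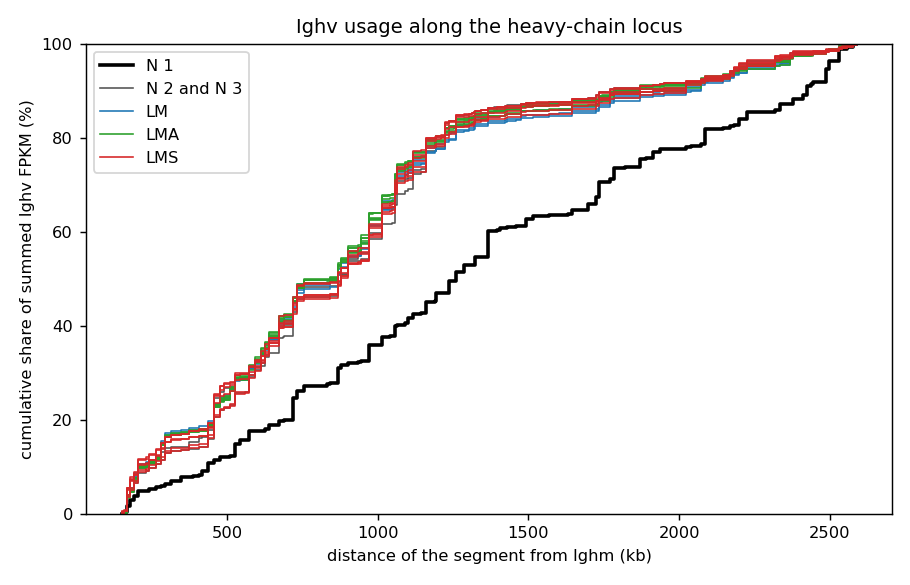
Cumulative share of the summed Ighv FPKM, in percent, against the distance of each segment from Ighm in kilobases, with 1 line per library and N 1 as the thick line. The 17 thin lines run together and pass 50% at 840 to 877 kb, while N 1 passes 50% at 1260 kb.

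Each segment was then tested between the groups with limma on log2(FPKM + 0.5) in all 18 libraries, with Benjamini-Hochberg adjustment over the 14395 reference genes tested and a call at an adjusted p under 0.05. LM against N asks what priming and boosting changed. No Ighv segment was called there, and 3 had an unadjusted p under 0.05. Of all genes tested 8.67% rose and 13.5% fell. The median log2 difference was -0.07 for the 113 segments and -0.08 for all genes. LMS against N gave no called segment either, with 4 at an unadjusted p under 0.05, and the shares of all genes were 0.00695% higher and 0% lower. Here the medians were -0.12 and 0.01.

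LMA against N, the anti-CD28 complex against untreated mice, called 3 segments higher and 0 lower of 113, while 13.5% of all genes were higher and 19% lower. The share of segments called, 2.65% higher, was below that of all genes. The median log2 difference was 0.40 for the segments and -0.09 for all genes. Ighv5-12, which lies 280 kb from Ighm, was at 6.79, 29.1 and 0.555 FPKM in N 1, N 2 and N 3 and at 29.5, 37.8 and 44.3 FPKM at the lowest, median and highest of LMA. The groups did not overlap, although N 2 came close. Its log2 difference was 2.60 ± 0.82 (SE; adjusted p = 0.0243). Ighv1-73 and Ighv1-71 were the others, and since both groups overlapped for each of them they were named after their values were seen. Ighv1-73, an annotated pseudogene, had 0.211, 9.35 and 0.531 FPKM in N and 5.60 to 14.5 in LMA (log2 difference 2.44 ± 0.75, adjusted p = 0.0217). Ighv1-71 had 7.11, 5.78 and 0.470 FPKM in N and 7.004 to 10.98 in LMA (1.33 ± 0.46, adjusted p = 0.0354). All of its windows of 100 bases (100%) are also in Ighv1-62-2, so its FPKM cannot be assigned to it alone. Over 33 alternative settings the call was kept in 28 for Ighv5-12, in 28 for Ighv1-73 and in 23 for Ighv1-71.

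These comparisons with N rested on which N libraries were used. Without N 3, 0 segments were higher and 31 lower in LM against N, where 23.5% of all genes were higher and 30.6% lower. There were 0 and 24 in LMA against N, beside 27.4% and 35% of all genes, and 0 and 33 in LMS against N, beside 10.8% and 16.5%. Without N 2 the counts were 7 and 0 in LM against N, with 5.48% and 9.8% of all genes, and 20 and 1 in LMA against N, with 8.07% and 13.3%. In LMS against N they were then 0 and 0, with 0.0417% and 0%.

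LMA against LM compares priming followed by the anti-CD28 complex with priming alone, so the later injections and later sampling week enter too. No segment was called, 0 of 113 had an unadjusted p under 0.05, and 0% of all genes were higher and 0% lower. The segments nonetheless lay mostly on the higher side, with a median log2 difference of 0.44 against -0.00 for all genes and 104 of 113 above 0. For 41 segments all 6 LMA libraries were higher than all 3 LM libraries, and for 0 segments all were lower. Over all genes tested 2.9% were higher in this way and 3.63% lower. Ighv12-3 was one of these, at 11.8, 13.8 and 12.8 FPKM in LM and 17.8 to 26.7 in LMA. Ighv14-1 was another, at 12.5, 13.3 and 12.6 against 18.4 to 25.6 FPKM. With only the 9 libraries of these groups in the fit, 22 segments were higher and 0 lower, beside 0.549% and 0.327% of all genes. The spread of N and LMS does not enter the error of that fit. Lists of other cell types differed between LM and LMA too. The mean log2(FPKM + 0.5) of the 8 erythroid genes was 6.62 to 7.11 in LM and 5.41 to 6.05 in LMA, with a median log2 difference of -1.34 over the list. That of the 10 neutrophil genes was 5.48 to 5.70 in LM and 5.92 to 6.32 in LMA (median 0.61), and the 12 T cell genes had a median of -0.46. Their part in the Ighv values was not tested.

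LMS against LM, which sets the anti-CTLA4 complex after priming against priming alone, called 0 segments, with 3 at an unadjusted p under 0.05. Among all genes 11.4% were higher and 7.16% lower. The median log2 difference was -0.05 for the segments and 0.09 for all genes. For Ighv6-3 LMS ranged from 12.1 to 165 FPKM around the LM values of 35.8 to 43.6, and its log2 difference was -0.14 ± 1.12 (SE; adjusted p = 0.958).

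LMA against LMS compares both antibodies. It called 6 segments higher and 0 lower in LMA, 5.31% of the 113, where 10.8% of all genes were higher and 17.3% lower. The median log2 difference was 0.49 for the segments and -0.10 for all genes. Ighv5-12 was the called segment whose groups did not overlap, with 3.10, 5.70 and 28.3 FPKM at the lowest, median and highest of LMS against 29.5, 37.8 and 44.3 in LMA (log2 difference 2.07 ± 0.67, adjusted p = 0.0296). The other 5 overlapped and were named after their values were seen. Ighv12-3, a family 12 segment, was at 0.0765, 0.765, 0.294 and 0.882 FPKM in LMS 1, 3, 4 and 6 and at 16.7 and 19.97 in LMS 2 and 5. In LMA Ighv12-3 was at 17.8 to 26.7 FPKM (3.13 ± 0.88, adjusted p = 0.0136). Ighv1-73 had 0.605 to 6.85 FPKM in LMS against 5.60 to 14.5 in LMA, with an adjusted p of 0.0153. Ighv14-1 had 0.403 to 18.7 against 18.4 to 25.6 (adjusted p = 0.0230). Ighv1-11 had 0.0539 to 4.54 against 2.65 to 6.32 (adjusted p = 0.0272). Ighv1-63 had 0.800 to 10.9 against 7.10 to 11.8 (adjusted p = 0.0484). LMS 2 and LMS 5 reached into the LMA range for Ighv1-73, Ighv1-11 and Ighv1-63, and LMS 5 alone did for Ighv12-3 and Ighv14-1. Over the 33 alternative settings the call was kept in 32 for Ighv12-3, 31 for Ighv1-73, 29 for Ighv14-1, 24 for Ighv1-11, 23 for Ighv5-12 and 16 for Ighv1-63.

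**Figure D5:**
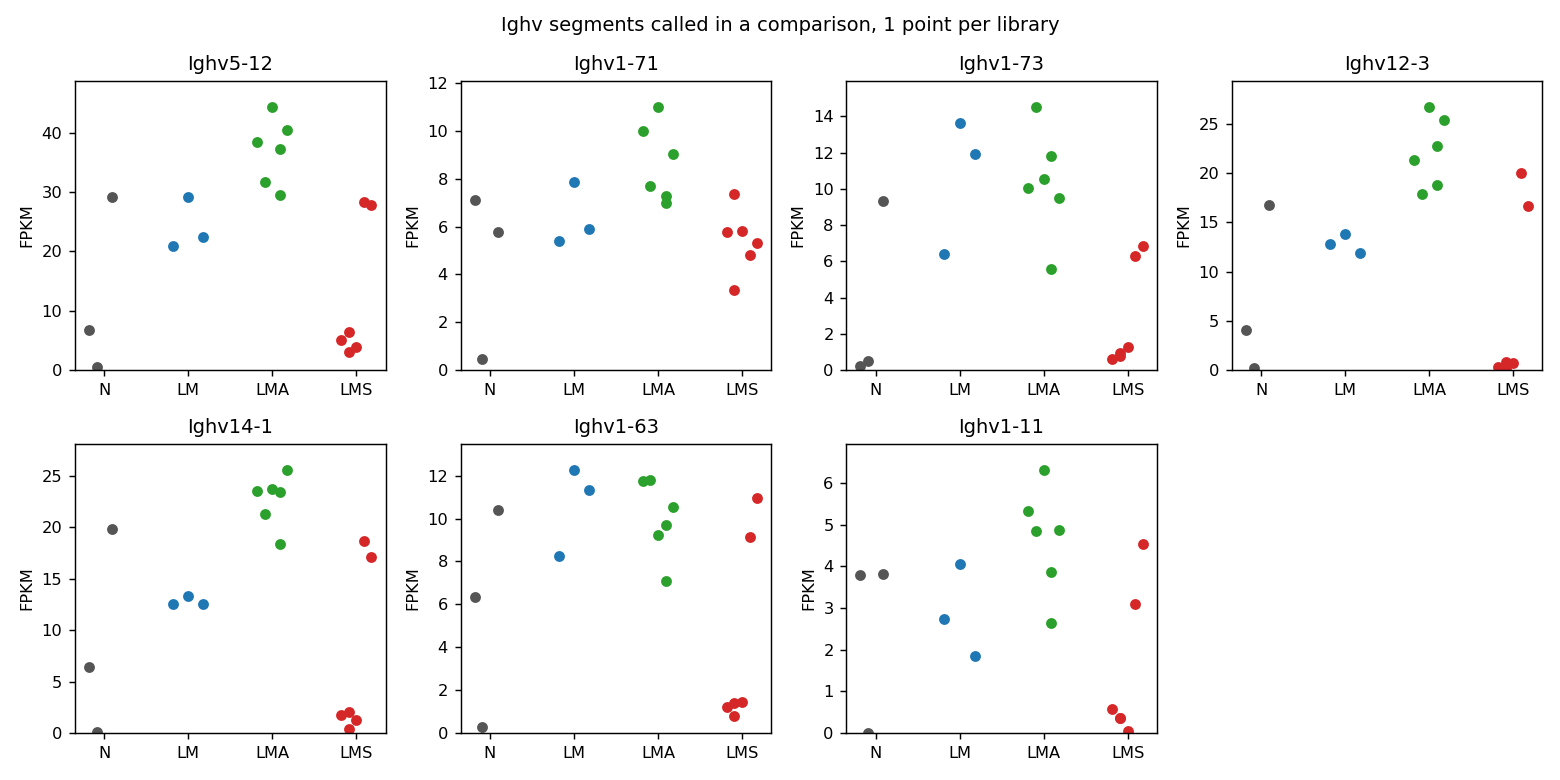
FPKM of the 7 segments called in LMA against N or in LMA against LMS, in panels with an axis from 0 and 1 point per library, by group. For Ighv12-3 and Ighv14-1 the LMS points split into 4 libraries near 0 and 2 near the LMA range.

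Of the 7 called segments, Ighv12-3, Ighv14-1 and Ighv5-12 also held a larger part of the Ighv total in LM and LMA. Ighv12-3 held 1.51% to 2.06% of it in the 9 libraries of LM and LMA and 0.04% to 0.65% in the 9 of N and LMS. Ighv14-1 held 1.47% to 2.001% in LM and LMA, and Ighv5-12 held 2.85% to 3.42%, against at most 0.62% and 1.503% in N and LMS. LMS 2 and LMS 5, with high totals, had 0.57% and 0.65% of Ighv12-3, so that for these 3 segments the shares of LM and LMA did not overlap with those of N and LMS. Ighv1-11 likewise did not overlap, with 0.235% to 0.487% against at most 0.213%. Ighv1-71 differed from them, as it held 0.598% to 0.869% in LM and LMA but 1.23% in N 3 and 1.62% to 1.896% in LMS 1, 3, 4 and 6. Ighv1-73 and Ighv1-63 overlapped. Ighv1-73 held 1.38% in N 3 against 0.562% to 1.52% in LM and LMA. Ighv1-63 held up to 0.718% in N and LMS against 0.714% to 1.44%. The 7 segments were picked by calls on these same libraries, so their shares are not separate support. How many of the other segments divide in this way was not counted.

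Without N 1, N 2, LMS 2 and LMS 5, the 4 libraries with no Eif2s3y, the counts changed in every comparison but LMA against LM. They were then 99 higher and 0 lower in LM against N, where 24.7% of all genes were higher and 30.2% lower, and 103 and 0 in LMA against N, beside 24.8% and 31.6%. LMS against N had 61 and 0, beside 5.93% and 0.236% of all genes. LMS against LM had 0 and 91, beside 36.7% and 25.9%, and LMA against LMS had 104 and 0, beside 27% and 40.4%. N then held N 3 alone, and its spread was taken to be that of the remaining groups. The counts against N in this fit therefore cannot test a treatment, because the low Ighv level of N 3 sets their direction. No conclusion is drawn from them. The median log2 differences of the segments against N 3 were 2.50 in LM, 2.95 in LMA and 1.39 in LMS. Without N 3 and LMS 1, 3, 4 and 6, the 5 libraries with the most Lyz2, the direction turned. LM against N then had 1 higher and 68 lower, beside 33.7% and 39.2% of all genes, and LMA against N had 4 and 56, beside 35% and 41.1%. LMS against LM had 86 and 0, beside 38.2% and 33.9%, and LMA against LMS had 1 and 78, beside 35.1% and 39.9%. These sets of libraries differ in B cell genes as well as in the genes that mark them, and the part of each was not tested.

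The constant and B cell genes set the segments in context. Of the 12 immunoglobulin constant genes, 1 rose and 0 fell in LMA against N and in LMA against LMS. In the other 4 comparisons 0 were called. Over all genes tested 13.5% were higher and 19% lower in LMA against N, and 10.8% and 17.3% in LMA against LMS. The gene that rose was Ighe, the constant region of IgE. It was at 0.161, 6.29 and 0.0586 FPKM in N, 3.61, 4.05 and 3.68 in LM, 5.71 to 8.67 in LMA and 0.586 to 5.64 in LMS, with log2 differences of 2.44 against N (adjusted p = 0.0127) and 1.82 against LMS (adjusted p = 0.0212). Ighm was at 1122, 1329 and 1025 FPKM in LM and at 1303 to 1757 in LMA, which overlap, and at 329 to 4280 in LMS. Igha, of IgA, was at 335 and 177 FPKM in N 1 and N 2 and at 11.1 to 18.3 in LM. In N 3 the heavy constant genes summed to 116 FPKM, of which Ighm held 105, so N 3 lacked these high Igha levels. Ighm and Igha were not called in any comparison.

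Of the 21 tested rows of the B cell list, 0 were higher and 1 lower in LM against N, in LMA against N and in LMA against LMS, and 1 was higher in LMS against LM. That gene was Btk, a kinase of the B cell receptor that myeloid cells also express, at 17.9 to 20.1 FPKM in LM, 18.1 to 19.9 in LMA and 26.1 to 33.6 in LMS. Of the 12 plasma cell genes 1 rose and 0 fell in LMA against LMS. It was Sdc1 (syndecan-1), at 11.4 to 13.3 FPKM in LMA and 4.41 to 5.48 in LMS (log2 difference 1.23, adjusted p = 5.55e-06). Jchain, which joins IgM and IgA polymers, was not called. Of the 12 genes of V(D)J recombination and precursor B cells, 6 could be tested and 2 of these, the DNA repair genes Prkdc and Lig4, were lower in LMA against LMS, with log2 differences of -0.49 (adjusted p = 5.55e-05) and -0.44 (adjusted p = 0.00406). Rag1, which starts recombination, was at most 0.134 FPKM in any library. Of 9 tested genes of the germinal centre and hypermutation, 1 rose and 0 fell in LMA against LMS. This was Bcl6, with a log2 difference of 0.93 (adjusted p = 2.33e-05). Over all genes 10.8% were higher and 17.3% lower in LMA against LMS. In LM against N and in LMA against N, 1 plasma cell gene was higher and 2 recombination genes were lower. The germinal centre list had 1 higher in LM against N and 3 in LMA against N. In LMS against LM, 1 plasma cell and 1 germinal centre gene were lower and 1 recombination gene was higher. Over all genes 8.67% were higher and 13.5% lower in LM against N, and 13.5% and 19% in LMA against N. In LMS against LM these shares were 11.4% and 7.16%.

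Genes of other cell types moved in the same comparisons. In LMA against LMS, 8 of 10 neutrophil genes and 5 of 13 rows of macrophage and monocyte genes were higher, among them Elane with a log2 difference of 3.75 (adjusted p = 7.37e-06), Mpo with 3.80 (adjusted p = 2.07e-05) and Itgam with 2.49 (adjusted p = 6.43e-07). The mean log2(FPKM + 0.5) of the neutrophil list was 5.92 to 6.32 in LMA and 2.09 to 4.66 in LMS. Of the 12 T cell genes and the 8 erythroid genes 0 were called in any of the 6 comparisons, and the same mean of the erythroid list ranged from 2.39 to 11.1 in N and from 4.01 to 10.9 in LMS. The part of these cell types in the Ighv values was not tested.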

How the data were processed

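RNA of mouse splenocytes was sequenced by the authors on an Illumina NovaSeq instrument and deposited as 1 table per library. The submitters' processing notes name the build mm10 and GATK 4.2. Which programs aligned the reads and estimated FPKM is not given in the sources used here. The protocol fields of the labels describe melanoma tumours, whereas the methods describe splenocytes.

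The authors deposited FPKM per gene, a Coverage signal (mean read depth per gene) and a column headed TPM, which is treated as a score here because assembled loci alone fill its total. FPKM was used for every value. Coverage times exonic length gave the aligned sequence over the segments. The gigabases per library are an estimate, an upper percentile of the ratio of Coverage to FPKM over expressed genes. Counts per gene are not used here, since whole reads could not be recovered, so no counting intervals were computed. Gene types, exons and sequences were taken from GENCODE M21.

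Reference genes averaging 0.5 FPKM or more, 14395 in all, entered a limma 3.58.1 fit in R 4.3.3 on log2(FPKM + 0.5), using trended eBayes and the 4 groups as the only term over all 18 libraries. The fit was tested on simulated data. A log2 difference on this scale understates the change of low genes. Scores over the segments (sums, shares, effective numbers) have no test. Python 3.11.15 and Biopython were used for the rest. Biopython aligned pairs of sequences end to end.

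Segments named were the 10 with the highest mean, the leader of each library, up to 5 called segments in each direction per comparison whose groups did not overlap, and the tested segments nearest to and furthest from Ighm. From the lists came up to 3 genes by adjusted p and any constant gene, and other names are marked in the text or give the level of a cell type. Members and lists were chosen with earlier results of these data known. Promoters, genome sequence and proteins of these segments are not used here. The alternatives changed the pseudocount, the filter or the scaling, or used a replicate block, sample weights, only the groups compared, leaving out each library, and 4 settings added after the data were seen.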

Additional observations from a re-analysis of the deposited data

How the results depend on the processing

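The counts of called segments (higher and lower together) depended on the libraries. Sample weights gave 99, all lower, in LM against N, 92 in LMA against N (91 lower, turning the direction), 106, all lower, in LMS against N, 91, all lower, in LMS against LM and 102, all higher, in LMA against LMS. Of the 14395 genes tested, sample weights called 5179 higher and 6119 lower in LM against N, and 5247 and 6243 in LMA against N. The counts were 5883 and 5368 in LMS against N, 5399 and 3688 in LMS against LM, and 3912 and 5878 in LMA against LMS. Only the groups compared gave 22 in LMA against LM, 1 in LMS against LM and 14 in LMA against LMS. All genes called there were 79 higher and 47 lower, 1345 and 813, and 1751 and 2892, in the same order. In LM against N, pseudocount 0.1, the TPM column, protein-coding and immunoglobulin genes only and the replicate block each gave 1. All genes called there were 1186 higher and 1927 lower with pseudocount 0.1 and 1124 and 1575 with the TPM column. They were 1035 and 1797 of 11684 with protein-coding and immunoglobulin genes only, and 1152 and 1699 with the replicate block. Pseudocount 1 gave 1 in LMS against LM, beside 1650 and 1057 of all genes. No filter gave 2 in LMA against LMS, beside 1832 and 2412 of 33628.

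Leaving out 1 library gave 0 to 31 in LM against N, 2 to 24 in LMA against N, 0 to 33 in LMS against N, 0 to 2 in LMS against LM and 2 to 11 in LMA against LMS. LMA against N had 24 lower without N 3, 20 higher and 1 lower without N 2, and 5 higher and 1 lower without LMS 5. Without LMS 5, 2245 of all genes were higher and 3022 lower, and the shares without N 3 or N 2 are given above. In LM against N there were 31 lower without N 3, 7 higher without N 2 and 1 without LMS 2 or LMS 5. Of all genes, 1539 were higher and 2154 lower without LMS 2, and 1538 and 2155 without LMS 5. LMA against LMS had 11 without N 3 and 10 without N 1, and 2 or 3 without LMA 4, LMA 5 or LMS 1, 3, 4 or 6. Of all 14395 genes, 1905 were higher and 2963 lower without N 3, and 1715 and 2842 without N 1. Without LMA 4, LMA 5 or LMS 1, 3, 4 or 6 they were 1360 to 1565 and 2217 to 2382. LMS against LM had 2 without N 1, N 3, LMS 2 or LMS 5 and 1 without N 2. All genes called there were 1705 to 2116 higher and 994 to 1299 lower. LMA against LM stayed at 0.

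The settings added after the data were seen gave, without N 1, N 2, LMS 2 and LMS 5, 99 in LM against N, 103 in LMA against N, 61 in LMS against N and 104 in LMA against LMS, all higher, and 91 in LMS against LM, all lower. Without N 3 and LMS 1, 3, 4 and 6 they gave 69 in LM against N (68 lower), 60 in LMA against N (56 lower), 86 in LMS against LM and 79 in LMA against LMS (78 lower), where Ighv1-63 had a log2 difference of -0.018. Without N 1 and N 3, N held N 2 alone, so only median log2 differences of the segments are given. They were -1.75 in LM against N, -1.27 in LMA against N, -0.05 in LMS against LM and 0.49 in LMA against LMS. For all genes they were -0.08, -0.09, 0.09 and -0.10. Relative to the B cell list there were 8 called segments in LMA against N, 1 in LMS against LM and 13 in LMA against LMS. All genes called there were 76 higher and 0 lower, 1 and 31, and 104 and 2, in the same order. The cause was not tested.

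The replicate block gave 2 in LMA against N, 7 in LMA against LMS and 0 in the other comparisons but LM against N. All genes called with it were 1484 higher and 2181 lower in LMA against N, and 1500 and 2356 in LMA against LMS. Of 21 same-numbered pairs 12 had deviations correlated over 0.1 (range -0.61 to 0.887), and every pair was over 0.1 only between LM and LMS, where the block changed no call.

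The TPM column gave median sums of 4516 in N, 1987 in LM and 3114 in LMA. FPKM times length gave a top 10 share of 36.0% in LM and 36.2% in LMA. Without pseudogenes the top 10 share was 39.8% in LM and in LMA and 44.6% in LMS, and the effective number 53.3 in LM, 52.5 in LMA and 48.5 in LMS. Leaving out 1 library moved the median sum in N from 909 to 2495. The tables hold no counts, so depth limits the low segments, above all in N 3.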
